A study of Mus musculus with 20 samples.

Results

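The 90 loci described here are snoRNA and scaRNA genes of mouse bone marrow-derived macrophages (BMDMs): rows of the deposited table named Snord, Snora or Scarna whose mean over both WT replicates was above 3 RPKM (reads divided by gene length and by sequencing depth) at 1 or more of 5 time points. They were chosen by measured WT values, from 114 rows with such names among 24888 rows in all. Small nucleolar RNAs (snoRNAs) pair with ribosomal RNA and direct its chemical modification: box C/D snoRNAs (Snord) guide methylation of the ribose, and box H/ACA snoRNAs (Snora) guide the conversion of uridine to pseudouridine. Small Cajal body-specific RNAs (scaRNAs, Scarna) guide both kinds of modification on the RNAs of the spliceosome. Most of these RNAs in mammals lie inside introns of other genes, called hosts, and are trimmed out of the intron after transcription while bound by their partner proteins.

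Chromatin-associated RNA was sequenced to follow the part of the transcription factor subunit cRel, encoded by Rel, in macrophage activation. BMDMs were grown from the marrow of wild type (WT) and cRel-/- mice (Rel−/− below) over 6 days of culture with 8% CMG, a source of macrophage growth factor. Cells were left unstimulated (0 h) or given lipid A, the part of bacterial lipopolysaccharide that macrophages sense, for 0.5, 1, 2 or 6 h. Each of the 10 groups had 2 replicates, which gave 20 libraries. The mice were males on a C57BL/6 background, aged 8 to 10 weeks by the methods and 10 to 12 weeks by a separate statement on sampling, and marrow of 2 to 4 of them was pooled for each experiment.

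The values were judged in reads, because short rows hold few of them. Within each library every value up to 300 reads was, within a set tolerance, a whole number of reads times 1 factor. Larger values were not checked in this way and were rounded to whole reads. The factor gave depths of 21094000 (WT, 6 h, replicate 1) to 45439000 reads (Rel−/−, 1 h, replicate 1), with a median of 33377500. The lowest value in any library was 1 read and no value was 0, so a row at 1 read and a row without reads cannot be told apart. Values at or under 3 reads are called near the floor below. Reads are not independent molecules, so the floor covers counting error only.

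Rel itself did not separate the genotypes. Its RPKM in WT replicates 1 and 2 was 1.32 and 2.76 at 0 h, 7.48 and 20.05 at 0.5 h, 10.3 and 18.03 at 1 h, 9.74 and 11.99 at 2 h, and 3.95 and 7.33 at 6 h. The libraries labelled Rel−/− had 2.00 and 2.79, 10.5 and 15.0, 15.6 and 16.2, 9.24 and 9.96, and 4.22 and 4.91 at the same times. The genotypes overlapped at all 5 times, so the libraries are called Rel−/− by their labels. The allele and the exons it removes are not described, so what reads over the whole row can show of it is unknown. Il12b, a long-known target of Rel and a gene of the fixed list below, had both Rel−/− libraries below both of WT at 0.5 h (0.0517 and 0.0476 against 2.18 and 6.65 RPKM), 1 h (1.33 and 0.721 against 27.5 and 16.9) and 2 h (0.0444 and 0.0273 against 10.8 and 1.09). By limma these differences had adjusted p of 0.0770, 0.0662 and 0.0660. The 14 lipid A response genes of a fixed list were called higher than at 0 h in Rel−/− in 11 cases at 0.5 h, 13 at 1 h, 13 at 2 h and 12 at 6 h, and the most abundant of them, Tnf, had a mean of 99.7 RPKM. Of all genes tested 9.15%, 11.1%, 15.6% and 13.7% were called higher.

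Macrophage markers fitted the labelled cell type. For macrophages 10 marker symbols were listed, 2 of them (Adgre1 and its older name Emr1) for the same gene. All but Emr1, 9 in number, were in the table and tested. Their summed level was 42.1 to 181 RPKM per library. Csf1r, the receptor for the growth factor of the culture, was the most abundant with a mean of 15.7 RPKM. In Rel−/− 2, 2, 0 and 1 of the 9 were called higher and 0, 3, 4 and 2 lower than at 0 h at the 4 later times. Of all genes tested 9.15%, 11.1%, 15.6% and 13.7% were called higher and 25.6%, 21.3%, 27.5% and 28.2% lower. No gene of the lists for T cells, B cells, neutrophils, fibroblasts, dendritic cells or erythroid cells reached a mean of 1 RPKM. The most abundant of these were Lck (0.116 RPKM), Cd79b (0.0300), S100a8 (0.181), Dcn (0.00724), Zbtb46 (0.0708) and Hba-a1 (0.0395). Fewer cells of a type and less RNA per cell cannot be told apart in such libraries.

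WT replicate 1 stood apart in ribosomal RNA. The share of the precursor Rn45s in all reads on genes was 12.8, 11.0, 17.9, 14.7 and 14.8% at 0, 0.5, 1, 2 and 6 h for replicate 1 of WT, and 2.42, 2.52, 3.35, 3.06 and 4.55% for its replicate 2. Rel−/− replicate 1 had 3.51, 3.48, 4.58, 4.44 and 6.00%, and replicate 2 had 1.83, 1.56, 2.15, 1.80 and 2.90%. Replicate 1 was thus the higher of each pair in 10 of 10 pairs, and every WT replicate 1 library was above all Rel−/− libraries. The part of these shares in the results on the loci was not tested.

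The 90 loci were 52 of 69 rows named as box C/D, 30 of 36 named as box H/ACA and 8 of 9 scaRNA rows. Their rows spanned 42 to 273 bases with a median of 84.5, and by class the median was 68 bases for C/D, 120.5 for H/ACA and 94.5 for scaRNA loci. The median of their mean RPKM over 20 libraries was 5.64, and by class it was 5.15, 7.50 and 106. In reads the median mean was 15.7 per library. A total of 29 loci averaged under 10 reads and 80 averaged under 100. Of the 1800 values 178 (9.89%) were at or under 3 reads and 46 were a single read, while 51 loci never came near the floor. Near-floor loci numbered 0 (WT, 0 h, replicate 1, and Rel−/−, 0 h, replicate 2) to 23 per library (replicate 1 at 6 h of both genotypes).

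The threshold of 3 RPKM ran through a dense range of values. Just inside it, by the highest WT group mean, were Snora47 (3.03 RPKM), Snord1b (3.11) and Snora34 (3.14). Just outside were Snora26 (2.81), Snora20 (2.67) and Snord11 (2.62). Of the 24 named rows outside, 6 were at 1 read in all 20 libraries and 8 never exceeded 3 reads. The imprinted snoRNAs known from brain were among those without signal: 3 of 9 listed names were in the table, and all 3 were at 1 read in every library. A threshold of 1 RPKM gave 104 loci and one of 10 RPKM gave 38. The same rule applied to Rel−/− gave 91 loci. Without WT replicate 1 it gave 75 loci, and without WT replicate 2 it gave 93.

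A few loci held most of the reads. Snord17 alone took 51.5% of the reads on the 90 loci, and the 10 most abundant took 93.4%. All 90 together took 0.0458% (Rel−/−, 0 h, replicate 1) to 0.147% (WT, 0 h, replicate 2) of the reads on genes. Mean levels exceeded 100 RPKM for 9 loci and were under 10 RPKM for 62.

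Snord17, a box C/D snoRNA in an intron of Snx5 (chr2:144091718-144091938), was the most abundant with a mean of 1739.9 RPKM. In WT replicates 1 and 2 it had 1389.5 and 3477 RPKM at 0 h, 1182 and 2136 at 0.5 h, 1084 and 2501 at 1 h, 1557 and 2220.2 at 2 h, and 945 and 2648 at 6 h. In Rel−/− it had 635 and 2677, 1211 and 2507, 903 and 1988, 1075 and 2278, and 876 and 1509 RPKM at the same times. Replicate 2 was the higher in all 10 pairs, by 2.21-fold on average, and the genotypes overlapped at each time. Between libraries of the same replicate number and time Rel−/− was the higher in 3 of 10 pairs. These values rest on 3855 to 27812 reads.

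The scaRNA Scarna10, in an intron of the condensin gene Ncapd2 (chr6:125136379-125136449), came next with a mean of 836 RPKM. It had 646 and 958 RPKM at 0 h, 591 and 734 at 0.5 h, 503 and 677 at 1 h, 641 and 771 at 2 h, and 471 and 760.3 at 6 h in WT. In Rel−/− it had 600.2 and 1908, 779 and 1403, 648 and 999.997, 717 and 1126, and 670.2 and 1123 RPKM. Replicate 2 was again the higher in 10 of 10 pairs (1.67-fold on average). The Rel−/− libraries were both above both WT libraries at 0.5 h only, while between libraries of the same number and time Rel−/− was the higher in 9 of 10 pairs. By limma no time was called, with the replicate number as a block (adjusted p = 0.374 at 0.5 h) or without it (0.816).

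The remaining scaRNAs covered a wide range. Scarna9 (mean 257 RPKM) had 153 to 314 RPKM in WT libraries, with a median of 244, and 210.2 to 405 in Rel−/−, with a median of 264. Scarna13 (mean 197) had a WT median of 168 RPKM (147 to 212) and a Rel−/− median of 208 (137 to 365), and Scarna6 (mean 191) had 183 (155 to 205) and 170.2 (122 to 386). The ranges of the genotypes overlapped for all 3, and Rel−/− was the higher in 7, 9 and 5 of 10 pairs of the same number and time. Scarna2 averaged 20.1 RPKM, Scarna3a 6.44, Scarna17 5.31 and Scarna3b 2.32.

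Among the other loci above 100 RPKM, Snora74a, an H/ACA snoRNA inside the noncoding host Snhg4, averaged 333 RPKM (135 to 536 over all libraries). The paralogs Snord15b and Snord15a both lie in Rps3, the gene of a small-subunit ribosomal protein, and averaged 181 and 179 RPKM. Snord15b had a WT median of 186 RPKM and a Rel−/− median of 177, and Snord15a had 175 and 191. Snord22, which acts in the processing of ribosomal RNA and lies in the noncoding host Snhg1, averaged 113 RPKM. Of 10 snoRNAs listed for such processing only Snord22 and Snord118 (13.2 RPKM, 15 to 149 reads) had a row in the table.

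The tenth locus by level, Snora23 in an intron of the nuclear import gene Ipo7 (chr7:117189878-117190061), showed a wide gap between replicates. Its RPKM in WT was 36.3 and 142 at 0 h, 23.6 and 88.7 at 0.5 h, 25.0 and 113 at 1 h, 42.4 and 108 at 2 h, and 22.7 and 69.5 at 6 h. In Rel−/− it was 14.4 and 86.4, 31.0 and 88.6, 28.2 and 80.5, 29.2 and 69.6, and 23.7 and 37.2. Replicate 2 was the higher in all 10 pairs, by 3.20-fold on average. Snora81 had a wider gap still (5.05-fold, 10 of 10 pairs), on 2 to 62 reads.

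Replicates differed in both directions across the loci. Replicate 2 was the higher in all 10 pairs for 4 loci (Snord17, Scarna10, Snora23 and Snora81) and the lower in all 10 for 4 others (Scarna2, Snord83b, Snord52 and Snord35a, named after their values were seen). The median ratio of replicate 2 to replicate 1 was 0.819 over the 90 loci. Rmrp, the RNA of another small ribonucleoprotein, went further: replicate 2 was the lower in all 10 pairs, with 114 to 297 RPKM in WT replicate 2 and 4849 to 11328 in WT replicate 1. In Rel−/− the gap was smaller, with 717 to 2033 RPKM in replicate 2 and 2246 to 7378 in replicate 1, and at 0 h it was 2033 against 3516. The part of library preparation in these gaps was not tested.

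Most loci lie within a larger row of the table. For 84 of the 90 a host row contained the locus, and these were 63 different hosts, so loci that share a host share its reads. The table does not separate reads of the small RNA from reads of unspliced host RNA, and how strand was handled in counting is not described. Each level, ratio and correlation of a locus given here may hold both. A total of 27 loci lay in 19 ribosomal protein genes and 13 in noncoding Snhg or Gas5 hosts. In the GENCODE annotation 53 loci lay in an intron of every transcript of the gene around them, which was not always the host row. A further 26 lay inside an exon of at least 1 transcript and 3 partly so. Another 8 had no gene around them on their strand. The host row was on the strand of the locus for 68 of the 84, and for 15 this was unknown. For 1 it was on the other strand: Snord91a lay in the row of Srr and in an intron of Tsr1. The small RNA annotated there was longer than the row for 72 of 88 loci, and by more than 1.5-fold for 7, among them Scarna10 (325 bases against 71), Scarna2 (414 against 61), Scarna9 (70 against 42) and Snora61 (130 against 62).

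Per length, most loci held more reads than their hosts in Rel−/−, whose libraries the choice of loci did not use. The mean over 10 Rel−/− libraries was more than 2-fold the host's RPKM for 65 of 84 loci, more than 5-fold for 19 and more than 10-fold for 10, with a median ratio of 2.67. By class the median ratio was 2.47 for C/D loci (37 of 48 above 2), 3.28 for H/ACA loci (22 of 30) and 20.9 for scaRNA loci (6 of 6). Replicates 1 and 2 alone gave 63 and 64 loci above 2-fold, and subtracting from each host the reads of the loci inside it, an alternative chosen after the data were seen, gave 69. The threshold in WT still favours loci with a high value. Without it, among 81 named rows in hosts above 1 RPKM the median ratio was 2.54 and 57 (70.4%) exceeded 2, beside a median of 1.58 and 93 of 287 (32.4%) for microRNA rows in such hosts. Ratios above 10 numbered 9 and 2, and no test of this difference was made. The microRNA rows, of the same range of spans, thus also had a median ratio above 1. The counts of loci above 2-fold therefore cannot be read against a ratio of 1. How reads that only overlap the edge of a short row were counted is not described.

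**Figure D1:**
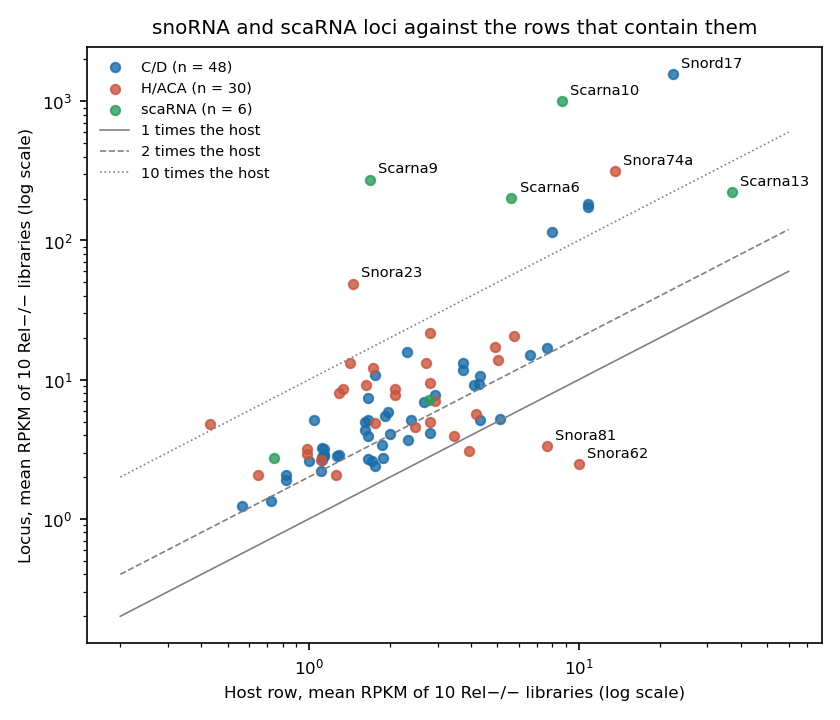
Mean RPKM over 10 Rel−/− libraries of each locus (vertical, log scale) against its host row (horizontal, log scale), by class, with lines at 1, 2 and 10 times the host. Of 84 loci 65 lie above the 2-fold line, and Scarna9 lies highest above its host (163-fold) and Snora62 lowest (0.246-fold).

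The extremes of the ratio were far apart. Scarna9 averaged 273 RPKM in Rel−/− and its host Cep295, a centrosomal protein gene, 1.68 RPKM, a ratio of 163. Next came Scarna10 with 115 times Ncapd2, Snord17 with 69.9 times Snx5, Scarna6 with 35.8 times the autophagy gene Atg16l1 and Snora23 with 33.5 times Ipo7 (18.5 in replicate 1 and 46.6 in replicate 2). At the other end Snora62 had 0.246 times the level of the ribosomal protein gene Rpsa (0.366 and 0.186 in replicates 1 and 2), and Snora81 had 0.435 times that of the translation factor gene Eif4a2 (0.177 and 0.712), so the lowest of all differed between replicates. Snora30 in Srcap followed with 0.780, Snord47 in Gas5 with 1.03 and Snora36b in Rab3gap2 with 1.15.

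Some host values were made up of the loci themselves. The locus held a median of 5.04% of the reads of its host row in Rel−/−, over 10% for 24 loci and most of the reads for 6. Those 6 were Scarna13 (98.8% of Snhg10), Snora78 (98.8% of Snhg9), Snora74a (93.5% of Snhg4), Snord17 (74.8% of Snx5), Snord22 (63.7% of Snhg1) and Snora24 (60.1% of Snhg8). A level printed for such a host is in large part that of the small RNA. With the loci's reads taken out of the hosts the median ratio was 2.99.

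The sequences of some of the loci named below or above for their level or change are shown with the motifs that mark their class in capitals. On the strand of the RNA alone, TGATGA was searched from the start to the middle and CTGA from the middle to the end of C/D loci, the usual C and D boxes, and ACA in the last 9 bases of H/ACA loci. TGATGA was in 17 of 51 C/D loci and in 3 of 102 flanks of equal length 100 bases away, and CTGA was in 50 of 51 and 18 of 102. The C/D locus without such a CTGA was Snord53, whose sequence is not shown. ACA was in 26 of 28 H/ACA loci and in 2 of 56 flanks. Where a motif occurred more than once, the first TGATGA, the last CTGA and the last ACA are in capitals. A match is a description of the letters and not of a working box. Only these exact letters within the rows were searched, and the annotated small RNA was longer than the row for 72 of 88 loci. A row without a match therefore does not show that the RNA lacks the box. Coordinates are on NCBIM37, 5′ to 3′: Snord17 on the minus strand, Snora23 on the plus strand, Scarna9 chr9:15130733-15130774 (minus, no capitals, since scaRNAs were shown without a box), and the paralogs Snord15a chr7:106631295-106631442 and Snord15b chr7:106628073-106628217 (minus), whose longest shared stretch is 21 bases.
Snord17: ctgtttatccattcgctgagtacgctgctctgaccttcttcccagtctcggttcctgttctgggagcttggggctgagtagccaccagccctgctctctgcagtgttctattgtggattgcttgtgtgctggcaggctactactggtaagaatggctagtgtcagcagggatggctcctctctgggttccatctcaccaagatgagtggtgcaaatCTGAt
Snora23: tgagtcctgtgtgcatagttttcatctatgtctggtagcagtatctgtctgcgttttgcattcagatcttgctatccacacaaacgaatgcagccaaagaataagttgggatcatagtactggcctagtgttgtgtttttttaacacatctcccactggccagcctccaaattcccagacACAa
Scarna9: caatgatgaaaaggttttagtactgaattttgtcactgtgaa
Snord15a: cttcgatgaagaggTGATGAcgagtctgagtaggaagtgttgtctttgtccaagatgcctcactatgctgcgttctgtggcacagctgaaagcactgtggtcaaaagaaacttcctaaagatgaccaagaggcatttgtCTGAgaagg
Snord15b: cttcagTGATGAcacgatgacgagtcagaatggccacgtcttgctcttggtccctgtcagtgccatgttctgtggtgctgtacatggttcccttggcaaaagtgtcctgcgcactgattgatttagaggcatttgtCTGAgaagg

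Across the time course the WT values are given as a description, because they chose the loci. The median of the WT means was 7.73 RPKM at 0 h, then 5.84, 6.20, 5.88 and 4.54 at 0.5, 1, 2 and 6 h. In Rel−/− it was 7.85, 5.48, 5.38, 4.92 and 3.75. Loci with a mean above 3 RPKM numbered 81, 69, 75, 66 and 56 in WT and 85, 68, 67, 63 and 50 in Rel−/−. Relative to 0 h the WT mean was lower for 73, 65, 69 and 80 of 90 loci at the 4 later times. The median log2 ratio to 0 h in WT was −0.36, −0.23, −0.35 and −0.76, beside −0.56, −0.37, −0.38 and −0.36 for all genes tested.

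Lipid A changes were tested with limma in Rel−/−, on 5170 genes with a mean above 1 RPKM that included all 90 loci. The question was which loci differed from 0 h at each time, at an adjusted p under 0.05. The deposited scale places the median of all tested genes below 0 h, by log2 changes of −0.52, −0.35, −0.45 and −0.44 at 0.5, 1, 2 and 6 h. Changes of the loci are therefore also given relative to that median, and with median-ratio scaling, which sets it close to 0. An exact permutation test on 2 against 2 libraries cannot go below p = 0.333, so single loci were tested only through the fit across all genes.

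At 0.5 h 7 of 90 loci (7.78%) were called lower and 0 higher, beside 25.6% of all tested genes called lower and 9.15% higher. At 1 h 5 were lower (5.56%) and 0 higher, beside 21.3% and 11.1%. At 2 h 8 were lower (8.89%) and 1 higher, beside 27.5% and 15.6%. At 6 h 27 were lower (30.0%) and 0 higher, beside 28.2% and 13.7%, so the share of loci called lower was near that of all genes at 6 h and below it at the earlier times. At an unadjusted limma p under 0.05 the loci higher and lower were 1 and 9 at 0.5 h, 2 and 11 at 1 h, 2 and 13 at 2 h, and 1 and 34 at 6 h. Among all tested genes that limit gave 11.4% higher and 33.9% lower at 0.5 h, 14.3% and 29.9% at 1 h, 18.4% and 34.2% at 2 h, and 16.7% and 35.3% at 6 h, beside 37.8% of the loci lower at 6 h.

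Scaling shifted this split. With median-ratio scaling 1 locus was lower and 5 higher at 0.5 h, 3 and 2 at 1 h, 4 and 3 at 2 h, and 15 and 1 at 6 h. All tested genes, scaled alike, were called lower in 10.6% and higher in 14.0% at 0.5 h, 12.5% and 15.2% at 1 h, 16.5% and 21.0% at 2 h, and 14.2% and 18.7% at 6 h. The 15 loci lower at 6 h (16.7%) were thus near the share of all genes, and the 5 higher at 0.5 h (5.56%) were below it. The higher loci were Snord89, Snora28, Snora24, Snora31 and Scarna3a at 0.5 h, Scarna3a and Snord15b at 1 h, Snord53, Snord12 and Snord23 at 2 h, and Snord89 at 6 h (named after their values were seen). The median change of the loci less that of all tested genes was 0.02, −0.04, −0.10 and −0.49 at the 4 times. Below the median of all genes were 42, 46, 48 and 56 of the 90 loci.

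These counts depended on the libraries and on the model. Without Rel−/− replicate 1 the loci called numbered 0 at every time, and without Rel−/− replicate 2 they numbered 0, 0, 1 and 0. Without WT replicate 1 they numbered 15, 18, 26 and 42, and without WT replicate 2 they numbered 14, 17, 26 and 42. All tested genes called in these fits came to 55.0%, 53.8%, 62.3% and 60.7% without WT replicate 1 (beside 16.7% of the loci at 0.5 h, 28.9% at 2 h and 46.7% at 6 h) and to 55.0%, 53.8%, 62.2% and 60.6% without WT replicate 2. Without Rel−/− replicate 1 they came to 0.774%, 0.290%, 4.99% and 1.06%, and without Rel−/− replicate 2 to 0.812%, 0.812%, 3.79% and 1.62%. In each of these fits the lone library is assumed to vary like the other groups. With the replicate number as a block 1 locus was higher and 15 lower at 0.5 h, 3 and 12 at 1 h, 3 and 22 at 2 h, and 2 and 39 at 6 h. Among all tested genes the block gave 13.3% higher and 40.3% lower at 0.5 h, 17.2% and 34.3% at 1 h, 20.8% and 40.7% at 2 h, and 19.6% and 40.8% at 6 h, where 43.3% of the loci were lower. All 48 calls held with that block.

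The calls are given by class beside all tested genes, and the difference between classes was not tested. Called lower were 6 of 52 C/D loci and 1 of 30 H/ACA loci at 0.5 h, 4 and 1 at 1 h, and 4 and 4 at 2 h, all shares below the 25.6%, 21.3% and 27.5% of all genes. At 6 h they were 21 C/D and 6 H/ACA loci, beside 28.2% of all genes, and of the 8 scaRNA loci 0 were lower at any time. With scaling C/D, H/ACA and scaRNA loci lower numbered 0, 1 and 0 at 0.5 h, 2, 1 and 0 at 1 h, 2, 2 and 0 at 2 h, and 13, 2 and 0 at 6 h, where 14.2% of all genes were lower. Those higher with scaling numbered 1, 3 and 1 at 0.5 h, 1, 0 and 1 at 1 h, 3, 0 and 0 at 2 h, and 1, 0 and 0 at 6 h. The median log2 change of C/D loci at the 4 times was −0.79, −0.60, −0.78 and −1.55, and relative to all tested genes −0.27, −0.25, −0.34 and −1.12. That of H/ACA loci was 0.14, −0.10, −0.35 and −0.54, and relative to all genes 0.66, 0.25, 0.09 and −0.10, so its sign changed at 1 and 2 h. That of scaRNA loci was −0.05, −0.03, −0.23 and −0.26, and relative to all genes 0.47, 0.32, 0.21 and 0.18, so its sign changed at all 4. With scaling the medians had the signs they had relative to all genes.

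For the 27 loci called lower at 6 h, both 0 h libraries were above 3 reads and above both 6 h libraries in 27 of 27. The same libraries made the calls, so this separation is close to fixed by the choice and is a description only. At 6 h 13 of the 27 loci had a library near the floor, and 10 had both there, so the size of these changes is bounded by the depth. The median change of the 27 was −2.18 in Rel−/−. With scaling 15 of the 27 were still called lower, and the change was negative for all 27.

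The comparisons at the 4 times share their 0 h libraries, so a high value there enters all 4. Called lower at each on the deposited scale were 3 loci, Snora2b, Snord47 and Snord2, and with median-ratio scaling Snora2b alone was. Snora2b, an H/ACA snoRNA in an intron of Kansl2, a gene of a chromatin-modifying complex, had 7.47 and 6.74 RPKM at 0 h in Rel−/−, 2.75 and 2.15 at 0.5 h, 3.34 and 2.103 at 1 h, 1.93 and 2.19 at 2 h, and 1.45 and 1.52 at 6 h. In WT it had 6.06 and 5.18, 2.28 and 1.47, 2.24 and 1.63, 2.76 and 1.67, and 2.12 and 1.86. All 16 later libraries lay below all 4 at 0 h, on 5 to 31 reads. The log2 change in Rel−/− was −1.51 at 0.5 h (adjusted p = 0.00245), −1.39 at 1 h (0.00424), −1.74 at 2 h (0.000694) and −2.18 at 6 h (0.000227), lower in 2 of 2 libraries each time. Relative to all tested genes these changes were −0.99, −1.04, −1.29 and −1.74. The adjusted p at 6 h ran from 1.8e-05 to 0.109 over the alternatives. Its host Kansl2 had 2.28 and 2.099 RPKM at 0 h and 0.443 and 0.430 at 6 h (−2.09, adjusted p = 0.000163), and the second locus in that host, Snora34, had a change of −0.93 at 6 h (0.142).

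Snord47, a C/D snoRNA of the noncoding host Gas5, had 10.6 and 12.4 RPKM at 0 h in Rel−/−, 3.44 and 4.12 at 0.5 h, 4.74 and 4.98 at 1 h, 4.43 and 3.30 at 2 h, and 2.00 and 2.62 at 6 h. In WT it had 7.93 and 3.83, 1.97 and 2.95, 6.42 and 2.81, 4.75 and 4.94, and 2.92 and 5.34. The Rel−/− libraries at 0 h were above all others, while in WT the 0 h libraries overlapped those at 1, 2 and 6 h. The changes in Rel−/− were −1.58 (adjusted p = 0.0125), −1.22 (0.0436), −1.56 (0.0111) and −2.27 (0.00178), lower in 2 of 2 libraries each time. Relative to all tested genes these changes were −1.07, −0.87, −1.11 and −1.84, and with scaling only that at 6 h was called (adjusted p = 0.108, 0.184, 0.0670 and 0.00907). The adjusted p at 6 h ran from 0.000121 to 0.206 over the alternatives.

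Snord2, a C/D snoRNA of Eif4a2, had 31.0 and 40.8 RPKM at 0 h in Rel−/−, 19.3 and 9.44 at 0.5 h, 14.2 and 8.23 at 1 h, 14.8 and 11.3 at 2 h, and 8.61 and 11.3 at 6 h. In WT it had 29.9 and 21.1, 15.0 and 8.05, 16.6 and 8.52, 25.9 and 18.1, and 17.4 and 10.2. Every later Rel−/− library was below both at 0 h, and in WT only the 2 h libraries overlapped those at 0 h. The changes in Rel−/− were −1.39 (adjusted p = 0.0429), −1.71 (0.0186), −1.45 (0.0299) and −1.84 (0.0114). Relative to all tested genes they were −0.87, −1.36, −1.01 and −1.40, and with scaling those at 1 and 6 h were called (adjusted p = 0.151, 0.0323, 0.0714 and 0.0220). At 6 h the adjusted p ran from 0.000862 to 0.251 over the alternatives. Snora81 lies in the same host and had a change of 0.02 at 6 h (0.993).

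**Figure D2:**
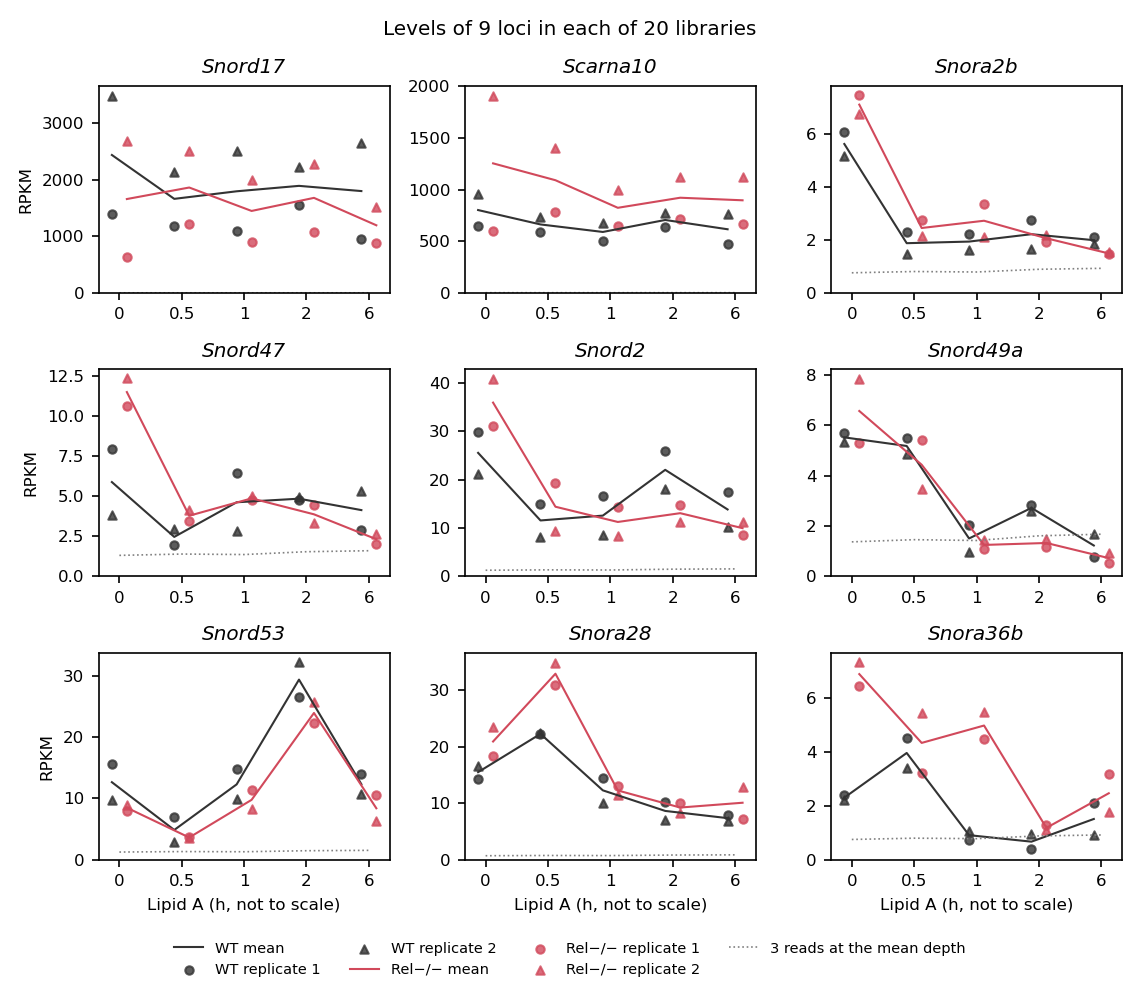
RPKM of 9 loci in each library against hours of lipid A, with circles for replicate 1, triangles for replicate 2, lines for the mean of both replicates and a dotted line at 3 reads at the mean depth; WT is dark and Rel−/− red. Snora2b, Snord47 and Snord2 are lower at every later time in Rel−/−, Snord53 is highest at 2 h, and Snord49a reaches 1 and 2 reads at 6 h.

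Snord49a and Snord65, C/D snoRNAs of the same noncoding host, 2410006H16Rik, were called lower from 1 h on. Snord49a had 5.28 and 7.85 RPKM at 0 h in Rel−/−, 5.41 and 3.45 at 0.5 h, 1.06 and 1.42 at 1 h, 1.16 and 1.483 at 2 h, and 0.525 and 0.917 at 6 h, the last on 1 and 2 reads. In WT it had 5.69 and 5.35, 5.50 and 4.86, 2.02 and 0.984, 2.85 and 2.59, and 0.765 and 1.68. From 1 h on all libraries of both genotypes were below those at 0 h. The changes in Rel−/− were −0.56 at 0.5 h (adjusted p = 0.291), −2.30 at 1 h (0.00120), −2.21 at 2 h (0.000939) and −3.04 at 6 h (0.000173), where the alternatives ran from 9.3e-05 to 0.0770. Snord65 had 6.38 and 7.26 RPKM at 0 h and 0.571 and 0.998 at 6 h in Rel−/−, on 1 and 2 reads at 6 h. Its changes were −2.19 at 1 h (adjusted p = 0.0272), −2.90 at 2 h (0.00483) and −3.01 at 6 h (0.00511). With scaling its call at 1 h was lost (−1.81, adjusted p = 0.0578). The third locus of this host, Snord49b, had 5.78 and 1.55 RPKM at 0 h and 4.13 and 2.26 at 6 h (0.02, adjusted p = 0.983), so its libraries overlapped. The host itself had 2.72 and 2.89 RPKM at 0 h and 0.455 and 0.339 at 6 h (−2.56, adjusted p = 0.00486).

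The other hosts with 3 or more loci gave mixed calls at 6 h as well. Rpl13a, a large-subunit ribosomal protein gene, had a change of −1.77 (adjusted p = 0.0335), and its loci had −1.41 (Snord34, 0.0184), −2.48 (Snord33, 0.0319), −1.45 (Snord35a, 0.0928) and −1.44 (Snord32a, 0.0707). Rpl23a had −1.96 (0.00539), and its loci had −2.63 (Snord42b, 0.00403), −2.05 (Snord42a, 0.0384) and −1.63 (Snord4a, 0.0927). The noncoding Snhg12 had −1.19 (0.0403). Of its loci Snord99 had −2.14 (0.0239), while Snora16a had −0.37, Snora44 −0.41 and Snora61 −0.19, none of them called.

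The sequences of the loci of 2410006H16Rik are shown because they share a host and differed in their calls, on the plus strand of chromosome 11: Snord49b chr11:62416588-62416650, Snord49a chr11:62416962-62417023 and Snord65 chr11:62418032-62418088. The longest stretch that Snord49a and Snord49b share is 13 bases. The loci called at all 4 times follow: Snora2b chr15:98356779-98356890 (minus strand), Snord47 chr1:162968223-162968287 (plus) and Snord2 chr16:23109026-23109093 (plus). Capitals mark the same motifs as above.
Snord49b: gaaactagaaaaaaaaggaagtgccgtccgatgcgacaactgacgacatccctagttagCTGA
Snord49a: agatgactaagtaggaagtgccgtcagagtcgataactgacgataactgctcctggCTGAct
Snord65: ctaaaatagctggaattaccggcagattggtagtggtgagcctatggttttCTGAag
Snora2b: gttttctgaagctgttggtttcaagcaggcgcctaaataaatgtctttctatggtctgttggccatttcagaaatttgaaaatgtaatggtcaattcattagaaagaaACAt
Snord47: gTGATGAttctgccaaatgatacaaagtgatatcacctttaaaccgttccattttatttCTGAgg
Snord2: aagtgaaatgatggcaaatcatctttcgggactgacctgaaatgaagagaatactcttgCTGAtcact

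Snord53, a C/D snoRNA in an intron of the nucleolar protein gene Wdr43 (chr17:71990229-71990296), was called in both directions. In Rel−/− it had 8.03 and 8.95 RPKM at 0 h, 3.70 and 3.54 at 0.5 h, 11.3 and 8.23 at 1 h, 22.3 and 25.7 at 2 h, and 10.5 and 6.27 at 6 h. In WT it had 15.6 and 9.75, 6.89 and 2.82, 14.7 and 9.86, 26.6 and 32.2, and 13.9 and 10.7. Both genotypes had their lowest libraries at 0.5 h and their highest at 2 h, without overlap with 0 h at either time. The change in Rel−/− was −1.21 at 0.5 h (adjusted p = 0.0406) and 1.49 at 2 h (0.0130), in 2 of 2 libraries each, and the alternatives ran from 0.00757 to 0.522 and from 0.00228 to 0.284. With scaling the change at 0.5 h was −0.69 and not called (0.229). Wdr43 had changes of −1.09, 0.27, 1.32 and −0.13 at the 4 times (adjusted p = 0.124, 0.709, 0.0563 and 0.860).

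Snora28, an H/ACA snoRNA in an intron of the translation factor gene Eif5, had 18.3 and 23.5 RPKM at 0 h in Rel−/−, 31.0 and 34.9 at 0.5 h, 13.1 and 11.4 at 1 h, 10.1 and 8.36 at 2 h, and 7.26 and 12.9 at 6 h. In WT it had 14.4 and 16.7, 22.2 and 22.4, 14.5 and 10.1, 10.2 and 7.07, and 7.84 and 6.89. The 0.5 h libraries were the highest in both genotypes, and those at 2 and 6 h were below those at 0 h. The changes called were −1.17 at 2 h (adjusted p = 0.0130, alternatives 0.00492 to 0.393) and −1.09 at 6 h (0.0199, alternatives 0.00735 to 0.382). With scaling both lost the call (−0.74 and −0.65), and the value at 0.5 h gained one in the higher direction.

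Among the remaining calls, Snord72 (−2.30, adjusted p = 0.0250), Snord8 (−1.46, 0.0406) and Snord7 (−1.85, 0.0453) were lower at 0.5 h. With scaling 0 C/D loci were called lower at 0.5 h, so none of these calls was kept. Snora65 was lower at 2 h (−2.81, 0.0391) and at 6 h (−3.06, 0.0290). At 6 h Snord73a (−2.97, 0.00378), Snord42b (−2.63, 0.00403), Snord87 (−2.06, 0.00741) and Snord100 (−2.47, 0.0101) had the lowest adjusted p after those described. For each of these both Rel−/− libraries were below both at 0 h. Snord73a had 6.42 and 5.01 RPKM at 0 h and 0.478 and 0.836 at 6 h, and Snord42b had 5.96 and 4.87, then 0.591 and 1.03, with 1 and 2 reads at 6 h for both loci.

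None of the scaRNAs was called at any time in Rel−/− on the deposited scale. At 6 h the log2 changes from limma were −0.30 for Scarna10 (adjusted p = 0.672), −0.43 for Scarna9 (0.387), −0.23 for Scarna13 (0.671) and −0.29 for Scarna6 (0.661). They were 0.84 for Scarna2 (0.341), 0.44 for Scarna3a (0.414), −0.15 for Scarna17 (0.776) and −0.55 for Scarna3b (0.435). The abundant snoRNAs Snord17 (−0.18, 0.874), Snora74a (0.11, 0.885), Snord15b (0.72, 0.190), Snord15a (0.31, 0.575), Snord22 (0.57, 0.350) and Snora23 (−0.25, 0.874) were not called at 6 h either. A p above the threshold does not show that their levels were equal.

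The changes of loci and hosts were set side by side for the 79 loci whose host was also tested. Across these loci the log2 changes in Rel−/− had a Pearson r of 0.62, 0.68, 0.76 and 0.74 and a Spearman rho of 0.62, 0.64, 0.66 and 0.71 at 0.5, 1, 2 and 6 h. This is a description across loci, which share libraries, a common 0 h group and in part their hosts and reads, and are not independent. Of the 58 different hosts tested 3, 5, 7 and 34 were lower (5.17%, 8.62%, 12.1% and 58.6%) and 0, 1, 1 and 0 were higher. All tested genes had 25.6%, 21.3%, 27.5% and 28.2% lower, so the share of hosts was below theirs at 0.5, 1 and 2 h and above it at 6 h. The median change of the hosts at 6 h was −1.48, beside −0.44 for all tested genes. These host shares are on the deposited scale only, and no host count with median-ratio scaling is given. At 6 h 26 of the 27 loci called lower had a host called lower, as did 27 of the 52 loci not called.

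None of the loci more than 5-fold above their hosts was called lower at 6 h, while at 0.5 h 1 of the 19 was, Snord53 (ratio 6.16, adjusted p = 0.0406, not called with scaling). At 1 and 2 h 0 were lower, and Snord53 was higher at 2 h. The groups by ratio to the host (at 1, 2 and 5) were chosen after the values were seen, and no test was made between them. The ratio came from the 10 Rel−/− libraries, which include those whose change is read, so a locus that falls lowers its own ratio. Of 19 loci more than 5-fold above the host 0 were called lower by limma at 6 h, while 7 of their 17 different tested hosts were, with median changes of −0.19 for the loci and −0.90 for the hosts. Between 2-fold and 5-fold 20 of 46 loci and 21 of 31 hosts were lower, with medians of −1.54 and −1.81. Between 1-fold and 2-fold 7 of 16 loci and 10 of 14 hosts were lower (−1.53 and −1.63), and below the host 0 of 3 loci and 2 of 3 hosts. A host with loci in more than 1 group counts in each. With scaling the loci lower in these groups were 0 of 19, 12 of 46, 3 of 16 and 0 of 3. Of all tested genes 28.2% were lower on the deposited scale and 14.2% with scaling. The highest ratio among the 27 was 4.50 (Snord34). With the ratio taken from the 10 WT libraries instead, 0 of 20 loci above 5-fold and 27 of 64 others were lower. The WT 0 h libraries alone gave 0 of 19 and 27 of 65. With scaling 0 loci above 5-fold and 15 others were lower by either WT ratio. These splits were chosen after the 6 h calls were seen, and WT values also chose the 90 loci, so they are a description and no independent check. Relative to all tested genes the median change of the loci above 5-fold was 0.25 by the Rel−/− ratio, 0.22 by the WT ratio and 0.24 by the WT 0 h ratio, each positive also with scaling, and that of the others was −1.06, −1.04 and −1.01.

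The loci were also compared with their hosts after the loci's reads were taken out. In Rel−/−, with the groups by the Rel−/− ratio, the log2 ratio of the 6 h to the 0 h mean had a median of −0.21 for the 19 loci above 5-fold and −1.60 for what was left of their hosts, which had the lower ratio for 17 of 19. For the 65 other loci the medians were −1.45 and −1.96, and the rest of the host had the lower ratio for 41. Over all 84 loci Pearson's r between locus and remaining host was 0.52 and Spearman's rho 0.43. For Scarna9 and the rest of Cep295 these log2 ratios were −0.44 and −1.75, for Snora23 and the rest of Ipo7 −0.72 and −2.13, and for Snora5c and the rest of Tbrg4 −0.05 and −2.37 (the last pair named after its values were seen). By its RPKM given above, Snora23 rose from 0 h to 6 h in Rel−/− replicate 1 and fell in replicate 2. The sign of its ratio therefore differed between replicates. Limma was run on whole host rows only. There the changes were −0.43 (adjusted p = 0.387) for Scarna9 and −1.51 (0.0233) for Cep295, −0.25 (0.874) for Snora23 and −1.89 (0.00111) for Ipo7, and 0.03 (0.972) for Snora5c and −2.23 (0.0129) for Tbrg4. The whole row of Cep295 had 2.61 and 3.79 RPKM at 0 h and 1.06 and 1.02 at 6 h, and that of Ipo7 had 1.82 and 2.79, then 0.486 and 0.592.

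**Figure D3:**
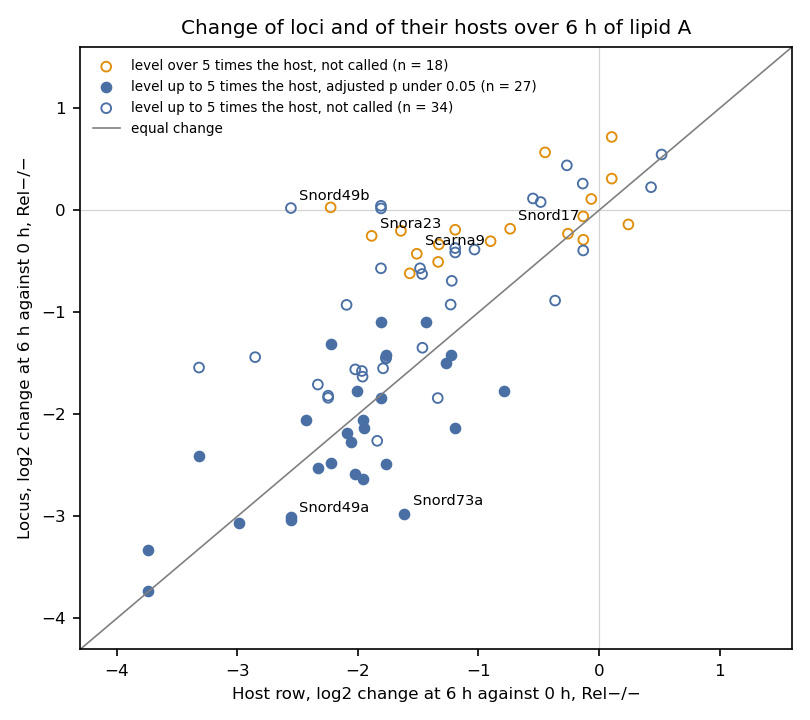
Log2 change from 0 h to 6 h in Rel−/− of each of 79 loci (vertical) against that of its host (horizontal); orange marks loci more than 5-fold above the host, and filled blue marks loci called lower. None of the 18 orange loci is called lower, while 27 of the other loci are.

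Between genotypes the question was which loci differed where Rel was targeted, read on the 103 named rows that passed the filter without regard to group. The ratios of the 90 loci are a description, since WT values chose them. The Rel−/− mean was the higher for 45, 50, 33, 32 and 31 of 90 at 0, 0.5, 1, 2 and 6 h, with median log2 ratios of 0.01, 0.05, −0.11, −0.17 and −0.19. These counts depended on the scale and on single WT libraries. In the limma fit, on means of logarithms, Rel−/− was the higher for 48, 54, 49, 34 and 31 loci, without WT replicate 1 for 55, 68, 71, 51 and 36, without WT replicate 2 for 32, 30, 22, 22 and 36, and with scaling for 34, 38, 25, 29 and 25. More than 2-fold apart in either direction were 3, 8, 8, 6 and 13 loci. No count over all tested genes is given for that limit, so these counts cannot be judged. At 6 h, 15 to 23 of the 90 loci were near the floor in each library. The median log2 difference in limma was 0.14, 0.17, 0.23, 0.11 and 0.07 for all tested genes. For the 90 loci it was 0.08, 0.11, 0.03, −0.14 and −0.22.

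By limma 1 locus was called, at 1 h, and 0 at 0, 0.5, 2 and 6 h. Among all tested genes 0%, 0.29%, 1.14%, 0.445% and 0.0774% were called at the 5 times. At an unadjusted p under 0.05 the loci higher and lower in Rel−/− were 3 and 2 at 0 h, 1 and 2 at 0.5 h, 3 and 1 at 1 h, 3 and 2 at 2 h, and 3 and 3 at 6 h. Either direction together these were 4.85%, 2.91%, 3.88%, 4.85% and 5.83% of the 103 rows, beside 3.83%, 9.48%, 12.3% and 7.29% of all tested genes at the first 4 times and 4.85% higher and 2.75% lower at 6 h. Without WT replicate 1 the called loci numbered 1, 7, 6, 1 and 0, without WT replicate 2 they numbered 0, 2, 6, 0 and 2, and without either Rel−/− replicate they numbered 0 at every time. The directions differed: without WT replicate 1 all were higher in Rel−/−, while without WT replicate 2 there were 0 higher and 2 lower at 0.5 h, 2 and 4 at 1 h, and 1 and 1 at 6 h. Of all 5170 tested genes 194, 478, 786, 155 and 13 were called without WT replicate 1 (9.25% at 0.5 h and 15.2% at 1 h, beside 6.80% and 5.83% of the rows). Without WT replicate 2 these were 7, 183, 773, 307 and 393 genes, and without either Rel−/− replicate 0 at every time. The lone library is assumed to vary like the other groups there too.

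The called locus was Snora36b, an H/ACA snoRNA in an intron of Rab3gap2 (chr1:187066805-187066917, plus strand). At 1 h it had 0.739 and 1.08 RPKM in WT (2 and 4 reads) and 4.48 and 5.47 in Rel−/− (23 and 21 reads). WT had 2.40 and 2.20 at 0 h, 4.53 and 3.39 at 0.5 h, 0.390 and 0.947 at 2 h, and 2.098 and 0.922 at 6 h, beside 6.44 and 7.33, 3.22 and 5.45, 1.28 and 1.08, and 3.17 and 1.76 in Rel−/−. The Rel−/− libraries were above the WT libraries at 0, 1 and 2 h and overlapped them at 0.5 and 6 h. The log2 difference at 1 h was 2.34 (SE 0.43, adjusted p = 0.0182), higher in 2 of 2 libraries, with one WT library near the floor. The adjusted p ran from 0.00832 to 0.850 over the alternatives, and with scaling the difference was 2.14 (0.0656). At 0 h the difference was 1.54 (0.899). Rab3gap2 had 3.52 and 2.95 RPKM in WT and 4.49 and 4.57 in Rel−/− at 1 h (0.48, 0.596). Within Rel−/− Snora36b was lower than at 0 h at 2 h (−2.45, 0.000779) and at 6 h (−1.50, 0.0164), and Rab3gap2 had −2.22 (0.000150) and −1.27 (0.00698). Its sequence is shown with the ACA in capitals.
Snora36b: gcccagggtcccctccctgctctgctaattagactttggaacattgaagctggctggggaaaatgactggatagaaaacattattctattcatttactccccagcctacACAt

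The next locus at 1 h was Scarna3b, with 0.673 and 0.492 RPKM in WT (2 reads each) and 2.66 and 4.99 in Rel−/− (15 and 21 reads). The difference was 2.47 (adjusted p = 0.0599, alternatives 0.0117 to 0.927), and with the replicate block it passed (0.0451). The libraries did not overlap, and both WT libraries were near the floor. At the other times the difference was 0.13 at 0 h, 0.87 at 0.5 h, −0.11 at 2 h and 0.23 at 6 h, with no call.

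Whether the lipid A change itself differed between genotypes was tested by the interaction in limma. It was called for 0 loci at each of the 4 times, beside 0.0193%, 0.0193%, 0% and 0% of all tested genes at 0.5, 1, 2 and 6 h. At an unadjusted p under 0.05 the loci with a higher and a lower change in Rel−/− were 0 and 1 at 0.5 h, 2 and 1 at 1 h, 0 and 1 at 2 h, and 1 and 1 at 6 h. These were 0.971%, 2.91%, 0.971% and 1.94% of the 103 rows, beside 2.21%, 3.08%, 2.55% and 1.66% of all tested genes. Calls made in Rel−/− alone therefore do not show a difference from WT.

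Genes that make or process these RNAs were read from fixed lists in Rel−/−, and none was called between genotypes or for the interaction. For the core box C/D proteins 5 symbols were listed, 2 of them (Snu13 and its older name Nhp2l1) for the same gene. Of these symbols 4 were in the table, all but Nhp2l1, and 2 were tested. Nop58 was lower at 6 h (−2.69, adjusted p = 0.00872), and Nop56, the most abundant with a mean of 1.99 RPKM, had −2.85 (0.0502). All 4 core box H/ACA proteins were in the table and 0 were tested, the most abundant being Nhp2 at 0.606 RPKM. Of 15 assembly and trafficking genes 2 were tested: the cap methylase gene Tgs1 was higher at 2 h (1.83, 0.00510), and Tcof1, a nucleolar protein gene, was lower at 0.5 h (−1.35, 0.00268).

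For end processing and decay 10 of 12 listed symbols were in the table and 5 were tested. Of these 0, 0, 2 and 1 were higher and 1, 1, 2 and 2 were lower at the 4 times. All tested genes had 9.15%, 11.1%, 15.6% and 13.7% higher and 25.6%, 21.3%, 27.5% and 28.2% lower at these times. Zcchc8, of a nuclear complex that feeds RNA to the exosome, was lower at all 4, with changes from −1.54 at 0.5 h (adjusted p = 0.00229) to −1.04 at 2 h (0.0152). Exosc10, a nuclease of the nuclear exosome, was lower at 2 h (−0.89, 0.04995) and 6 h (−1.44, 0.00645). The nuclease genes Xrn1 (1.598, 0.00963) and Xrn2 (0.87, 0.0276) were higher at 2 h.

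Of 21 symbols listed for noncoding hosts 19 were in the table and 14 were tested, with 0, 0, 1 and 7 lower and 0 higher at the 4 times. Beside these, 25.6%, 21.3%, 27.5% and 28.2% of all tested genes were lower and 9.15%, 11.1%, 15.6% and 13.7% higher. Snhg5 (−3.99, adjusted p = 0.00653), Snhg15 (−3.05, 0.00393) and Gas5 (−2.06, 0.0488) were among the 7, and Snhg6, Snhg7, Snhg12 and Snhg17 were the others. Of 27 other short structural RNAs 7 were in the table and 6 were tested. Rnu11, an RNA of the minor spliceosome, was the 1 called higher at each time, with log2 changes of 2.31, 2.48, 3.07 and 2.25 on 1 to 11 reads. Both of its 0 h libraries were at 1 read in Rel−/−. Rn45s was not called at any time, and its change at 6 h was 0.70 (0.623). At 6 h the median change of the tested genes was −0.95 for the noncoding hosts, 0.20 for processing and decay, 0.48 for the short structural RNAs, 0.49 for the macrophage markers and 4.18 for the lipid A response genes, beside −0.44 for all tested genes.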

How the data were processed

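The authors aligned reads to mm9 with HISAT2 and SAMtools per the labels, counted them per gene with SeqMonk and deposited RPKM for each library. Whether counting used the strand is not stated. Loci and lists were chosen with earlier results of these data known. Reads and depths (21094000 to 45439000) were recovered from whole multiples. Log2 of RPKM plus 0.1 was fitted with limma 3.58.1 (R 4.3.3, with a trend) on 5170 genes with a mean above 1 RPKM, as 10 groups with 10 residual and 2.94 prior degrees of freedom. Benjamini-Hochberg adjusted p under 0.05 was called, two-sided, over all genes of each comparison. The code was tested on simulated data. Tables and sequences used Python 3.11.15.

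Named were the 10 most abundant loci, at most 8 called per direction and time, calls between genotypes, all scaRNAs, 3 loci on either side of the threshold, hosts with 3 or more loci, 5 extremes of host ratio and fixed lists. Replicate numbers come from the sample titles. Replicates with the same number were checked as a pair: the correlation of their deviations between WT and Rel−/− was 0.104 to 0.477. Between time points of 1 genotype it was 0.423 to 0.768 in WT and 0.107 to 0.591 in Rel−/−. The main fit leaves this pairing within a time course out, and a replicate block was an alternative. No replicates were duplicates (chi-square per degree of freedom 165 to 1275, 0 identical values). Other alternatives were pseudocounts of 1 RPKM and 3 reads, other filters, median-ratio scaling, other trends, only the libraries compared, other thresholds and leaving out a replicate.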

Additional observations from a re-analysis of the deposited data

Results flagged for a closer look

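Rows named as snoRNAs that lie outside the WT threshold were read in Rel−/− as well. For 2 of them both Rel−/− libraries of a group were above all 10 WT libraries, with a group mean above 3 RPKM. The threshold held their WT means at or under 3 RPKM, so a Rel−/− mean above WT is built into this reading, and it is a description only. Snord11 had a mean of 4.55 RPKM at 0.5 h in Rel−/− (3.99 and 5.10 RPKM, on 9 and 12 reads), and its WT libraries had 0.551 to 3.38 RPKM. At 1 h both its Rel−/− libraries were below those of WT, and at 0, 2 and 6 h they overlapped. Snord67 had a mean of 3.35 RPKM at 0 h in Rel−/− (2.23 and 4.47 RPKM, on 6 and 18 reads), and its WT libraries had 0.279 to 1.28 RPKM, on 1 to 3 reads. Neither was called between genotypes by limma at any time; the differences for Snord67 were 2.05 at 0 h (adjusted p = 0.999), 1.66 at 2 h (0.554) and 1.52 at 6 h (0.633), higher in 2 of 2 libraries each time. The number of rows that would pass these conditions by chance was not tested. No share of all genes under the same conditions is given here, so the count of 2 cannot be judged.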

How the results depend on the processing

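Counts of loci, summed over both directions, kept within 1.5 times their value in 108 of 154 comparisons with an alternative and moved further in 46. Of the 108, 66 were counts of 0 that stayed at 0, which show no stability; of 83 comparisons of a count above 0, 41 moved further, and of 56 for the time course in Rel−/− 30 did. The sum does not show direction: at 0.5 h in Rel−/− 7 lower and 0 higher became 1 lower and 5 higher with median-ratio scaling. For loci called in Rel−/− at 0.5 h (7), the count was 4 with a pseudocount of 3 reads, 2 among genes with a mean above 3 RPKM, 4 with the trend on reads, 15 with only the libraries compared and 16 with the replicate block, and 0 to 15 when a replicate was left out. At 1 h (5) it was 3 above 3 RPKM, 17 with only the libraries compared and 15 with the replicate block, and 0 to 18 without a replicate. At 2 h (9) these were 5, 26 and 25, and 0 to 26. At 6 h (27) it was 16 with median-ratio scaling, 42 with only the libraries compared and 41 with the replicate block, and 0 to 42. Between genotypes at 1 h (1) it was 2 with a pseudocount of 1 RPKM, 0 above 3 RPKM, 0 with scaling, 0 with only the libraries compared and 2 with the block, and 0 to 6 without a replicate. At 0, 0.5, 2 and 6 h (0 each) leaving out a replicate gave 0 to 1, 0 to 7, 0 to 1 and 0 to 2. The counts of 0 were those without a Rel−/− replicate for the time course, where the lone library is assumed to vary like the other groups. The interaction stayed at 0 in every alternative run. A threshold of 10 RPKM gave 38 loci for 90, and 4-fold over the host gave 23 for 65. For single loci 522 of 669 comparisons kept their side of the threshold, 147 lost the call and 0 reversed. Of 48 calls in Rel−/−, 24 were kept with scaling, 29 above 3 RPKM, 39 with a pseudocount of 3 reads, 48 with the block and 0 without either Rel−/− replicate. The higher threshold and the smaller set above 3 RPKM leave fewer loci by construction, and for the other settings the cause was not tested. Subtracting the loci's reads from hosts was chosen after seeing the data and gave 69 for 65, and ratios from WT libraries, also chosen then, left 0 loci above 5-fold called lower by limma at 6 h. Results without a test have no paired analysis. Depth limits the loci near 3 reads: changes that end there were bounded by the floor.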
